A study of Danio rerio with 16 samples.

Results

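The RNA of the period genes per1a, per1b, per2 and per3 and the cryptochrome genes cry1a, cry1b, cry2, cry3a and cry3b was followed in zebrafish testis. These genes are grouped here as the negative arm of the circadian clock, and what each protein does was not measured. The 9 genes, of 32520 in the deposited table, were chosen by name as a gene family with their EE2 and ploidy fold changes in these libraries already known. Those fold changes, their adjusted p-values and the counts of called genes are therefore a description and support nothing further. All 9 had enough reads to be tested. Male zebrafish of the AB strain were triploid or diploid and were either left as controls or given the synthetic estrogen 17α-ethinylestradiol (EE2). The groups were triploid EE2, triploid control, diploid EE2 and diploid control testis, with 4 libraries each. Triploid EE2 replicate 2 is called an outlier in its own title, so that group entered the fit with 3 libraries. The labels used here state neither the dose nor the duration of exposure, nor the age of the fish, how triploids were made, how many fish went into a library or at what hour they were sampled.

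The clock of vertebrate cells is a loop of transcription and repression. Clock and Bmal proteins pair and switch on many genes, among them the period and cryptochrome genes, and Period and Cryptochrome proteins then enter the nucleus and block that pair. Zebrafish keep more cryptochrome copies than mammals, their peripheral organs respond to light directly, and the RNA of most of these genes cycles with the time of day. As the hour of sampling is not stated, a difference in hour between groups cannot be told apart from one of EE2 or ploidy.

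The 16 libraries held 7052508 to 17369549 read pairs counted on genes. Diploid control replicate 1 stood apart from the other diploid controls, with a chi-square per gene of 92.0 to 98.7 against each of them, while the others differed from each other by 10.6 to 24.5. The titled outlier differed from the other triploid EE2 libraries by 46.6 to 54.6 per gene, against 10.0 to 14.1 among those. Germ cell markers (ddx4, dazl, piwil1, nanos2 and dnd1) were present in every group, at 2605 to 3643 CPM in sum over the 15 libraries of the fit. The titled outlier had 2388 CPM of them. CPM are read pairs scaled by library size and a normalization factor. The 5 oocyte markers (zp3, bmp15, gdf9, buc and figla) summed to 14.4 to 28.5 CPM over the 15 libraries, most of it from buc. The labels do not say that replicates came from separate fish, so p-values cover only the spread among these samples, which may be technical. In whole testis, fewer cells of a type and less RNA per cell cannot be told apart.

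The period and cryptochrome genes were moderately to well expressed. Across the 15 libraries of the fit a member had 219 to 2590 read pairs, which puts the error of counting alone at 6.76% or less. Their biological coefficient of variation, the spread between replicates beyond counting, was 11.7% to 18.1%, against a median of 20.4% over all genes tested. The members lay at percentiles 75.0 to 92.9 of level among genes tested, and their spread was not compared with genes of like level. Per kilobase of exon, the order of levels in diploid controls was led by cry1b at 31.4 ± 3.42 CPM per kb (SD, n = 4), followed by cry2 at 24.2 ± 1.97 CPM per kb. Then came per1b, cry3b, per3 and cry1a between 16.2 and 12.1 CPM per kb, and the library ranges of neighbours among these overlapped. The genes cry3a and per2 followed at 9.70 and 9.43 CPM per kb with overlapping ranges, and per1a was lowest at 5.92 ± 1.00 CPM per kb. In the other groups cry1b was again first and per1a again last by mean level per kilobase. The gene cry3b ranked 2 in triploid EE2 testis at 25.5 CPM per kb and 3 in triploid controls at 16.8 CPM per kb. It ranked 2 in diploid EE2 testis at 25.6 CPM per kb and 4 in diploid controls, just above per3 at 12.9 CPM per kb. In diploid EE2 testis the ranges of cry1b and cry3b overlapped, while in the other groups cry1b stood clear of every other member.

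**Figure D1:**
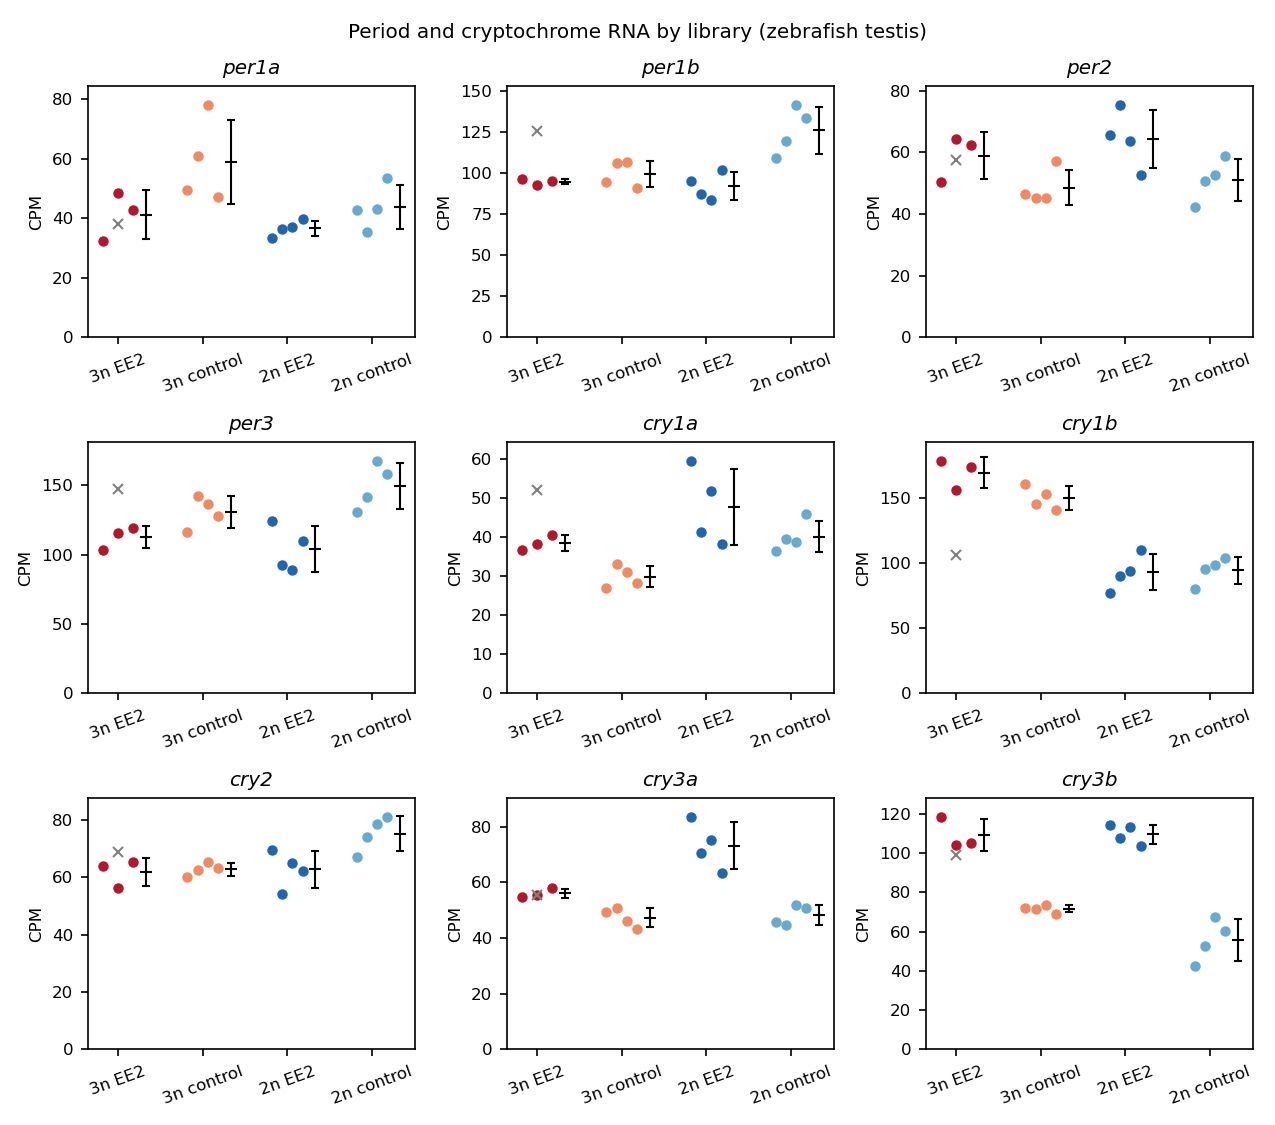
Level of each gene in every library, in CPM on the y axis, for triploid (3n) and diploid (2n) testis. Coloured points are libraries in the fit, the black mark and bar are their mean and SD (n = 3 for 3n EE2, n = 4 otherwise), and the grey cross is the library titled an outlier. The coloured triploid points of cry1b lie above all diploid points, and the EE2 points of cry3b lie above all control points.

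The plot of levels by library shows that the members did not move as one. In diploid testis, EE2 exposure went with more RNA of both cry3 copies and less of per1b and per3. EdgeR's quasi-likelihood test with Benjamini-Hochberg adjustment over all 23007 genes tested called 2 members higher and 2 lower at an adjusted p under 0.05, while 2.36% of all genes were called. The median log2 fold change of the 9 members was -0.03, beside -0.01 over all genes. At an unadjusted p under 0.05 there were 6 members, beside 16.9% of all genes. The ranges of CPM did not overlap for 4 members, the same 4 that were called, beside 8.82% of all genes.

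The largest difference was that of cry3b (ENSDARG00000091131, chromosome 22, 786556 to 809282, plus strand, GRCz11), one of a pair of zebrafish cryptochrome copies. It was at 114, 107, 113.1 and 104 CPM in diploid EE2 testis, against 42.3, 52.4, 67.4 and 60.1 CPM in diploid controls. Every exposed library was above every control, and the controls were spread more widely than the exposed libraries. The gene rose 1.97-fold, a log2 fold change of 0.98 ± 0.12 (SE; 95% interval 0.72 to 1.23; edgeR's quasi-likelihood test, adjusted p = 0.000762). Its partner copy cry3a (ENSDARG00000069074, chromosome 8, 21225064 to 21252659, plus strand) had 83.6, 70.3, 75.1 and 63.5 CPM in diploid EE2 testis, against 45.6, 44.7, 52.0 and 50.8 CPM in diploid controls. These groups did not overlap either. The log2 fold change of cry3a was 0.60 ± 0.10 (SE; 95% interval 0.39 to 0.81; adjusted p = 0.00454). Its adjusted p was 0.062 in a fit of the diploid groups alone.

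Of the period genes, per3 (ENSDARG00000010519, chromosome 11, 39959039 to 40021080, plus strand) and per1b (ENSDARG00000012499, chromosome 7, 50822465 to 50847296, plus strand) fell. Both are known to cycle with the time of day in zebrafish tissues. The level of per3 was 124, 92.8, 88.8 and 110.0 CPM in diploid EE2 testis, against 131, 141, 168 and 158 CPM in diploid controls. The exposed libraries all lay below the controls, with replicate 1 of each group the closest pair. The log2 fold change of per3 was -0.52 ± 0.12 (SE; 95% interval -0.79 to -0.26; adjusted p = 0.037). The level of per1b was 95.2, 87.4, 83.4 and 102 CPM in diploid EE2 testis, against 109, 119, 142 and 133 CPM in diploid controls. Again no exposed library reached the lowest control. Its log2 fold change was -0.45 ± 0.10 (SE; 95% interval -0.67 to -0.23; adjusted p = 0.0303). Both calls lay near the threshold, and the lower calls of per1b and per3 were lost when the titled outlier was fitted, in a fit of the diploid groups alone and in several fits that left out 1 library.

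The other 5 members were not called in this comparison. The light-induced gene per2 (ENSDARG00000034503, chromosome 2, 48309600 to 48375342, minus strand) averaged 64.3 ± 9.39 CPM in diploid EE2 testis and 51.1 ± 6.80 CPM in diploid controls (SD, n = 4 each), a log2 difference of 0.33 ± 0.13. The cryptochrome cry1a (ENSDARG00000045768, chromosome 4, 12013043 to 12026507, plus strand), also light-induced in zebrafish, averaged 47.7 ± 9.77 CPM in diploid EE2 testis and 40.1 ± 3.97 CPM in diploid controls. For cry2 (ENSDARG00000102403, chromosome 25, 13846883 to 13871121, minus strand) the means were 62.7 ± 6.38 and 75.1 ± 6.11 CPM in diploid EE2 and diploid control testis. These 3 genes had ranges that overlapped between the groups. The copy per1a (ENSDARG00000056885, chromosome 10, 22809715 to 22831611, minus strand) had a log2 difference of -0.26 with a 95% interval of -0.62 to 0.11. For cry1b (ENSDARG00000011583, chromosome 18, 15106518 to 15129696, plus strand) the difference was -0.03 with an interval of -0.28 to 0.22, so a change of the size seen in the cry3 copies lies outside it.

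In triploid testis the RNA of cry3b, cry3a and cry1a was higher in every EE2 library than in every control. In diploids this held for the cry3 copies but not for cry1a. No member's difference was called in triploids, where 0.104% of all genes were called. At an unadjusted p under 0.05 there were 4 members, beside 5.42% of all genes. DESeq2's Wald test called 1 member, cry3b, and 101 of all genes, against 24 of all genes by edgeR's quasi-likelihood test. The median log2 fold change of the 9 members was 0.18, beside 0.01 over all genes. Ranges of CPM were apart for cry1a, cry3a and cry3b, each higher in triploid EE2 testis, beside 8.78% of all genes.

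The level of cry3b was 119, 104 and 105 CPM in triploid EE2 testis, against 72.2, 71.6, 73.8 and 69.1 CPM in triploid controls. The triploid controls lay close together, and the exposed libraries were all higher. The log2 difference was 0.61 ± 0.13 (SE; 95% interval 0.34 to 0.88; adjusted p = 0.11 by edgeR's quasi-likelihood test). Without diploid control replicate 1 in the shared fit, its difference was 0.60 ± 0.09 with an adjusted p of 0.019. The copy cry3a was at 54.7, 55.3 and 58.0 CPM in triploid EE2 testis, against 49.3, 50.8, 46.3 and 43.1 CPM in triploid controls. This gap between ranges was narrow, and the log2 difference was 0.24 ± 0.11. The light-induced cry1a was at 36.5, 38.1 and 40.5 CPM in triploid EE2 testis, against 26.9, 33.1, 31.1 and 28.3 CPM in triploid controls. Its groups were apart, with a log2 difference of 0.36 ± 0.14.

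The remaining triploid values overlapped between exposed and control libraries. The members per3 and per1b averaged 112.8 ± 8.24 and 94.6 ± 1.63 CPM in triploid EE2 testis (SD, n = 3), against 131 ± 11.5 and 99.4 ± 7.98 CPM in triploid controls (SD, n = 4). Their log2 differences were -0.21 ± 0.13 for per3 and -0.07 ± 0.11 for per1b. The widest spread was that of per1a, at 32.3, 48.4 and 42.8 CPM in triploid EE2 testis, against 49.3, 61.0, 78.1 and 47.0 CPM in triploid controls. Triploid control replicate 3 was the highest of all 16 libraries for per1a. The log2 difference of per1a was -0.52 ± 0.19, with a 95% interval of -0.91 to -0.12. It was not called (edgeR's quasi-likelihood test, adjusted p = 0.68), though only that of cry3b was larger in size among the members. The log2 differences of per2, cry1b and cry2 were 0.28 ± 0.14, 0.18 ± 0.12 and -0.02 ± 0.10.

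Whether EE2 acted differently on the members in triploids and diploids was tested as the interaction of ploidy and EE2. No member was called by edgeR's quasi-likelihood test, where the share of all genes called was 0%, or by DESeq2's Wald test, which called 43 of all genes. At an unadjusted p under 0.05 there were 3 members, per1b, cry3a and cry3b, beside 5.32% of all genes. Their interaction values on the log2 scale were 0.38 ± 0.15 for per1b, -0.36 ± 0.15 for cry3a and -0.37 ± 0.17 for cry3b, each with an adjusted p of 0.926. A call in diploids without one in triploids therefore does not show that the 2 responses differ. For cry3b the 95% interval of the interaction reached from -0.74 to just below 0.

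**Figure D2:**
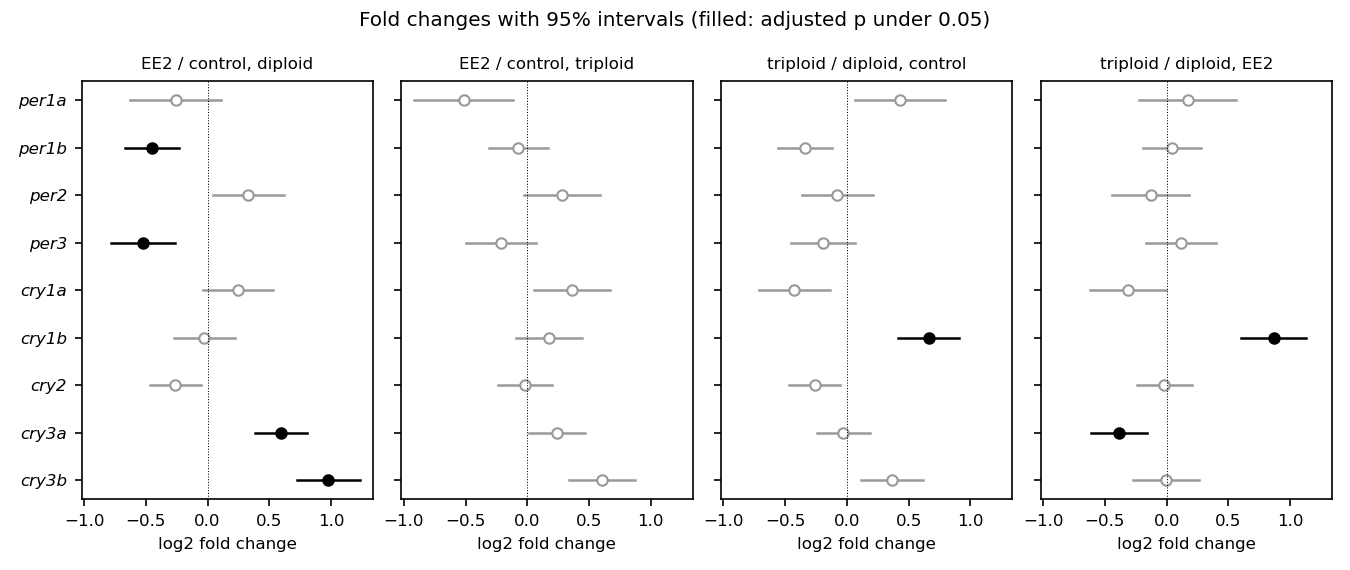
Log2 fold change (x axis) of each gene (y axis) in the 4 comparisons, with 95% intervals from edgeR's quasi-likelihood fit of 15 libraries. Filled points passed an adjusted p of 0.05 and open points did not; the comparisons share groups of libraries in pairs. The EE2 column for diploids holds 4 filled points, and cry1b is filled in both ploidy columns.

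The testis of triploids had more cry1b RNA than that of diploids in both conditions, and no other member was called in both. In controls, edgeR's quasi-likelihood test with Benjamini-Hochberg adjustment called 1 member higher in triploids and none lower, beside 2.74% of all genes called. At an unadjusted p under 0.05 there were 6 members, beside 17.6% of all genes. Under EE2 it called 1 member higher and 1 lower, beside 5.82% of all genes, and 3 members had an unadjusted p under 0.05, beside 19.6% of all genes. The median log2 fold change of the members was -0.08 in controls and -0.01 under EE2, beside -0.04 and 0.00 over all genes. The ploidy comparison in controls shares the diploid controls with the EE2 comparison in diploids and the triploid controls with that in triploids, and the ploidy comparison under EE2 shares both exposed groups with them.

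In controls cry1b was at 161, 146, 153 and 141 CPM in triploid testis, against 80.2, 95.6, 98.7 and 104 CPM in diploid testis. Under EE2 it was at 179, 156 and 174 CPM in triploid testis, against 76.9, 90.2, 94.3 and 110.5 CPM in diploid testis. All 7 triploid libraries of the fit were above all 8 diploid libraries. The gene was 1.58-fold higher in triploid controls, a log2 fold change of 0.66 ± 0.12 (SE; 95% interval 0.42 to 0.91; adjusted p = 0.00424). Under EE2 it was 1.83-fold higher in triploids, a log2 fold change of 0.87 ± 0.12 (SE; 95% interval 0.60 to 1.13; adjusted p = 0.000684). The titled outlier had 107 CPM of cry1b, below the other 7 triploid libraries and inside the range of diploid EE2 testis. With that library in the fit, cry1b had an adjusted p of 0.052 in controls. For 2 other genes that separate the ploidies, the kinase gene tssk6 and the Sertoli cell hormone gene amh, the titled outlier had 1.78 and 209 CPM, inside the triploid ranges of 0.0880 to 3.45 and 83.6 to 299 CPM and below the diploid ranges of 15.2 to 48.9 and 561 to 1225 CPM.

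The genes beside cry1b on chromosome 18 were looked up in the same comparisons. The gene listed as ABTB3 that starts 1660 bases before it, on the other strand, had log2 differences between triploids and diploids of 0.20 ± 0.20 in controls and -0.42 ± 0.22 under EE2. The gene zgc:153031, which lies 2416 bases after it on the same strand, had differences of -0.24 ± 0.13 in controls and 0.15 ± 0.13 under EE2. None of these 4 values was called, with adjusted p-values from edgeR's quasi-likelihood test of 0.323 or more. These neighbours were picked by position after the values of cry1b were seen, and whether they differ from cry1b was not tested. Another gene listed as ABTB3 lies 5639 bases before the partner copy cry1a on chromosome 4, also on the other strand.

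The partner copy cry1a had the opposite sign. It was at 26.9, 33.1, 31.1 and 28.3 CPM in triploid controls, against 36.5, 39.6, 38.6 and 45.7 CPM in diploid controls. The groups did not overlap, but the log2 difference of -0.43 ± 0.13 was not called (adjusted p = 0.113). Under EE2 the difference was -0.31 ± 0.14, and the ranges overlapped. As a share of the summed level of both cry1 copies per kilobase, cry1b took 82.9% ± 1.28 in triploid EE2 testis (SD, n = 3), 84.7% ± 1.61 in triploid controls, 68.1% ± 7.30 in diploid EE2 testis and 72.2% ± 1.32 in diploid controls (SD, n = 4 each). Every triploid library of the fit had a higher share than every diploid library, and the titled outlier, at 69.3%, lay among the diploids.

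Ranges did not overlap for 5 members between triploid and diploid controls, beside 11.9% of all genes. Besides both cry1 copies these were cry3b, higher in triploids with a log2 difference of 0.37 ± 0.12, and per1b and cry2, lower in triploids with differences of -0.34 ± 0.10 and -0.26 ± 0.10. None of these passed the adjusted threshold in edgeR's quasi-likelihood test, with adjusted p-values of 0.0991 for per1b, 0.178 for cry2 and 0.124 for cry3b. DESeq2's Wald test called per1b and cry3b as well as cry1b, with adjusted p-values of 0.037 for per1b and 0.049 for cry3b. That test called 1190 of all genes, against 630 by edgeR's quasi-likelihood test. For cry3b, triploid controls at 69.1 to 73.8 CPM lay just above diploid controls at 42.3 to 67.4 CPM. For per1b, triploid controls at 90.9 to 106 CPM lay just below diploid controls at 109 to 142 CPM. Ranges of per1a overlapped, with a log2 difference of 0.43 ± 0.17 between triploid and diploid controls (edgeR's quasi-likelihood test, adjusted p = 0.215).

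Under EE2 the ranges of triploids and diploids were apart for 2 members, cry1b and cry3a, beside 20.3% of all genes. The level of cry3a was 54.7, 55.3 and 58.0 CPM in triploid EE2 testis, against 83.6, 70.3, 75.1 and 63.5 CPM in diploid EE2 testis. The triploid libraries were close together and all below the diploid ones. The log2 fold change was -0.39 ± 0.11 (SE; 95% interval -0.61 to -0.16; adjusted p = 0.0473). That call was lost under 7 of the 8 other fits and in 13 of 15 fits without 1 library, with adjusted p-values up to 0.15. The cry3b copy had a log2 difference of -0.01 ± 0.13 in the same comparison, and both exposed groups had a mean of about 109 CPM, at 109 ± 8.15 CPM in triploids and 109.6 ± 4.89 CPM in diploids.

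The balance within the family also differed between groups. Summed per kilobase, the 5 cryptochrome genes had 3.27 ± 0.413 times the level of the 4 period genes in triploid EE2 testis (SD, n = 3) and 2.58 ± 0.205 times in triploid controls (SD, n = 4). The ratio was 2.82 ± 0.213 in diploid EE2 testis and 2.04 ± 0.0628 in diploid controls (SD, n = 4 each). Each diploid control lay between 1.99 and 2.13, below every other library, the titled outlier at 2.41 included. Among the libraries of the fit, exposed libraries of each ploidy lay above their controls, but in triploids only narrowly, at 2.90 or more under EE2 against 2.88 or less in controls. The titled outlier, an exposed library, lay below every triploid control. The cryptochrome sum was 124.5 ± 6.78 CPM per kb in triploid EE2 testis, 105 ± 3.46 in triploid controls, 106 ± 4.82 in diploid EE2 testis and 90.4 ± 9.13 in diploid controls. The period sum varied less, with group means of 38.3, 41.0, 37.6 and 44.4 CPM per kb in the same order of groups. Of the cryptochrome sum, cry1b made the largest part, with means of 56.2, 49.8, 30.8 and 31.4 CPM per kb in that order. The higher sum and ratio of triploids are therefore not separate from the cry1b difference given above. Sums without cry1b were not made.

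**Figure D3:**
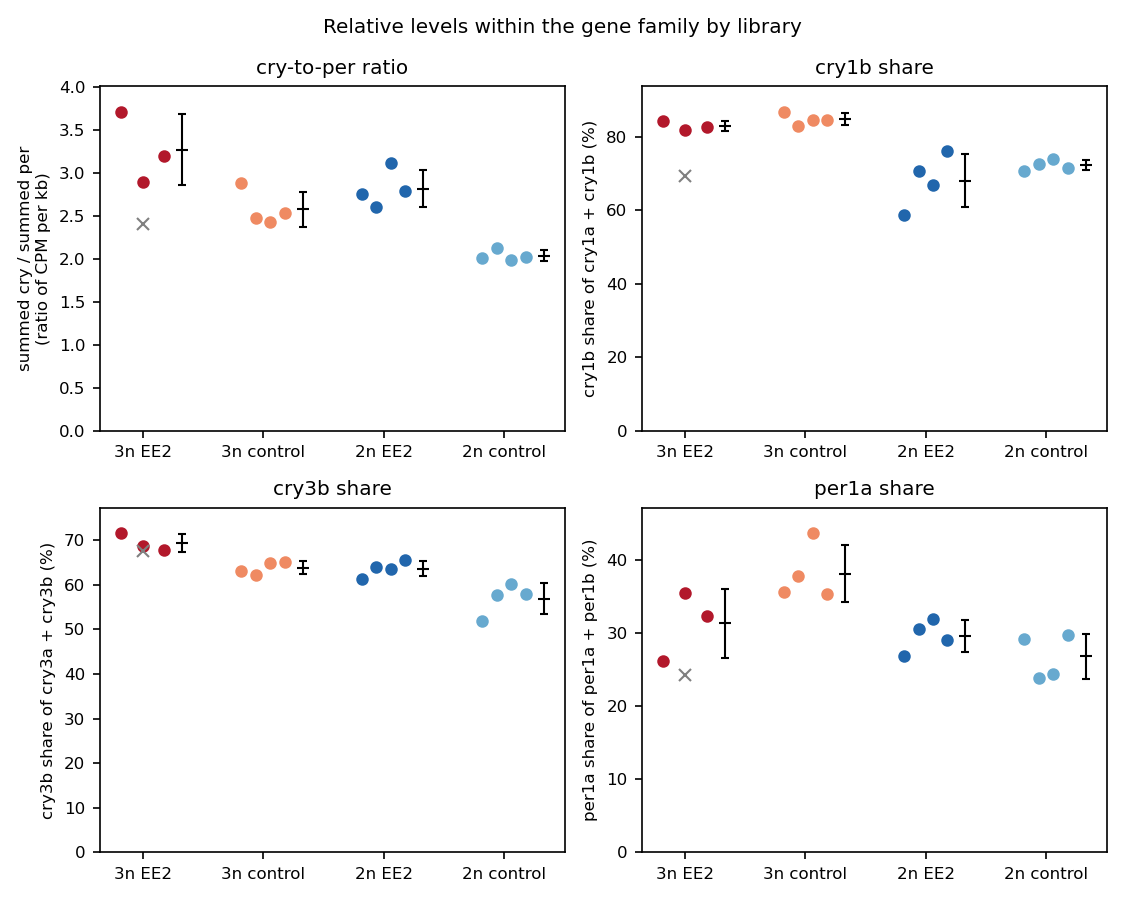
Ratio of summed cryptochrome to summed period level, and the share of 1 copy in each pair of copies, by library (y axes; levels in CPM per kb). Points are libraries in the fit, the black mark and bar are mean and SD (n = 3 for 3n EE2, n = 4 otherwise), and the grey cross is the library titled an outlier. Diploid controls hold the lowest ratios, from 1.99 to 2.13, and the cry1b share separates the ploidies among libraries of the fit, while the titled outlier, at 69.3%, lies among the diploids.

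Within the cry3 pair, cry3b took 69.4% ± 2.01 of the summed level in triploid EE2 testis (SD, n = 3) and 63.8% ± 1.48 in triploid controls (SD, n = 4). In diploids its share was 63.7% ± 1.71 under EE2 and 56.9% ± 3.53 in controls (SD, n = 4 each). The exposed libraries of each ploidy in the fit had higher shares than their controls, with no overlap, as did the titled outlier at 67.5%. Within the per1 pair, per1a took 38.1% ± 3.87 in triploid controls, all 4 of them above the 8 diploid libraries, and 31.3% ± 4.72 in triploid EE2 testis, where the range of 26.2% to 35.5% overlapped that of the diploids. These sums and shares were made after the values of the members were known and carry no test. Reads that map to both copies of a pair are left out by the counter's default, so regions where copies are near-identical would count for neither. The only member that overlaps another annotated gene is per1a, with si:ch211-237l4.9 on the same strand, which had 0 read pairs in every library.

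Summed levels of several marker lists differed between the same groups. Ranges given are those of the libraries in the fit. The smooth muscle markers acta2, myh11a and tagln summed to 543 to 653 CPM in triploid EE2 testis, 256 to 328 CPM in triploid controls, 1190 to 1580 CPM in diploid EE2 testis and 326 to 613 CPM in diploid controls, and all 3 rose in diploids under EE2 (edgeR's quasi-likelihood test with Benjamini-Hochberg adjustment). The 5 Leydig cell markers (cyp17a1, cyp11c1, star, insl3 and hsd3b1) summed to 144 to 279 CPM, 913 to 1484 CPM, 122 to 501 CPM and 916 to 3498 CPM in the same order of groups. Of these, 4 were called lower in diploids under EE2, while insl3 had a log2 difference of -2.74 ± 0.69 and was not called. The 4 Sertoli cell markers (amh, gsdf, dmrt1 and sox9a) summed to 444 to 525 CPM in triploid EE2 testis and 373 to 565 CPM in triploid controls, against 1281 to 1781 CPM in diploid EE2 testis and 935 to 1453 CPM in diploid controls. That sum was carried by amh and gsdf, both lower in triploids in each condition, while dmrt1 and sox9a were not called, with log2 differences between triploids and diploids under EE2 of -0.07 ± 0.17 and -0.02 ± 0.24. With EE2 in diploids none of the 4 was called, and sox9a had a log2 difference of -0.83 ± 0.22 while the sum was higher. The erythrocyte markers hbaa1 and alas2 summed to 22.1 to 476 CPM in diploid EE2 testis and 2.16 to 12.8 CPM in diploid controls. The 476 CPM was that of diploid EE2 replicate 1, and the other diploid EE2 libraries were at 22.1 to 28.5 CPM. The gene hbaa1 rose (edgeR's quasi-likelihood test, adjusted p = 0.041). The endothelial gene cdh5 also rose in diploids, with a log2 fold change of 0.83 ± 0.18 (adjusted p = 0.0213), and kdrl was not called. The macrophage gene marco averaged 21.6 CPM in diploid EE2 testis and 9.23 CPM in diploid controls and was not called. Summed with lyz of the same list, it was at 49.6 CPM in diploid EE2 replicate 1. The other diploid EE2 libraries had sums of 11.9 to 14.7 CPM. The 5 germ cell markers were at 2976 to 3206 CPM in triploid EE2 testis, 3321 to 3643 CPM in triploid controls, 2605 to 3036 CPM in diploid EE2 testis and 3048 to 3431 CPM in diploid controls, and none of them was called in any comparison. The meiosis and spermatid markers sycp1, sycp3, spo11 and tekt1 were not called in any comparison either. Their sum was lowest in diploid EE2 replicate 1, at 1424 CPM, and highest in diploid control replicate 1, at 3707 CPM. Remaining diploids ranged from 2448 to 3349 CPM when exposed and from 2446 to 2674 CPM as controls. Triploid sums in the fit ranged from 2532 to 2943 CPM under EE2 and from 2933 to 3080 CPM in controls. The titled outlier, left out of these ranges, had 1478 CPM of the meiosis and spermatid markers. It had 43.6 CPM of the Leydig cell markers and 67.4 CPM of marco and lyz. Markers of other organs also had reads. The pancreas gene prss1 was at 9.01 to 1619 CPM in diploid controls and 13.9 to 960 CPM in diploid EE2 testis. Its highest values were in diploid control replicate 4 and diploid EE2 replicate 1. In triploids prss1 was at 3.18 to 37.6 CPM under EE2 and 11.1 to 50.7 CPM in controls. The liver markers fabp10a, tfa and apoa1b summed to 17.3 to 306 CPM over the 15 libraries. The part of these marker differences in the values of the period and cryptochrome genes was not tested. Of 3 photoreceptor markers only aanat2 was matched to a gene, at 0.498 to 3.16 CPM.

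Among the other genes of the clock, a list of 50 symbols held activators, nuclear receptors, D-box factors, further repressors, kinases and ligase adaptors of the Period and Cryptochrome proteins, and other genes of the photolyase family. Of these, 47 were matched to a gene and 44 were tested. In diploids, 5 of the 44 rose and 2 fell under EE2, beside 446 rises and 97 falls among all 23007 genes tested, together 2.36%. In triploids no gene of the list was called under EE2, and none was called for ploidy in controls. Under EE2, 8 of the 44 were lower in triploids and none was higher, beside 1097 lower and 241 higher among all genes, together 5.82%. No gene of the list was called for the interaction by edgeR's quasi-likelihood test. At an unadjusted p under 0.05 the list had 14 of its 44 tested genes for EE2 in diploids, beside 16.9% of all genes. It had 7 of 44 for EE2 in triploids, beside 5.42%. Of the same 44, there were 11 for ploidy in controls, beside 17.6% of all genes, and 14 for ploidy under EE2, beside 19.6%. For the interaction there were 7, beside 5.32%.

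The largest rise in diploids was that of nr1d2a, a Rev-erb nuclear receptor of the family that represses Bmal genes. It averaged 128 ± 24.9 CPM in diploid EE2 testis and 18.6 ± 3.14 CPM in diploid controls, with a log2 fold change of 2.78 ± 0.30 (SE; edgeR's quasi-likelihood test, adjusted p = 0.000389). In triploids its means were 35.7 ± 16.8 CPM under EE2 (SD, n = 3) and 23.3 ± 7.44 CPM in controls. Another Rev-erb gene, nr1d1, fell in diploids to 5.85 ± 1.33 CPM under EE2, against 13.3 ± 3.16 CPM in controls. The same family thus held rises and falls. The activator gene clocka, which encodes a partner of Bmal, rose in diploids to 50.5 ± 6.17 CPM under EE2, against 28.5 ± 4.35 CPM in controls. All 6 activator genes had a positive EE2 difference in diploids and in triploids, and clocka in diploids was the only one called. Among all 23007 genes tested, 11075 had a positive difference in diploids and 11750 in triploids.

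The D-box factor genes hlfa and nfil3-5 also rose in diploids under EE2, with log2 fold changes of 0.89 ± 0.22 and 1.25 ± 0.18, and nr1d4b rose with 1.07 ± 0.20. The further repressor gene ciarta, whose mouse counterpart inhibits the Clock and Bmal pair, fell by 0.56 ± 0.10 on the log2 scale (adjusted p = 0.00576). It averaged 58.8 ± 2.72 CPM in diploid EE2 testis and 86.6 ± 6.89 CPM in diploid controls, so the direction was that of per1b and per3. The genes lower in triploids than in diploids under EE2 were clocka, nr1d2a, nr1d4b, roraa, rorcb, hlfa, nfil3-5 and nfil3-6, with log2 fold changes of -0.54 for roraa to -1.85 for nr1d2a. None of the 10 kinase and ligase adaptor genes and none of the 4 other photolyase family genes tested (cry4, cry5, cry-dash and cpdp) was called in any comparison.

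**Figure D4:**
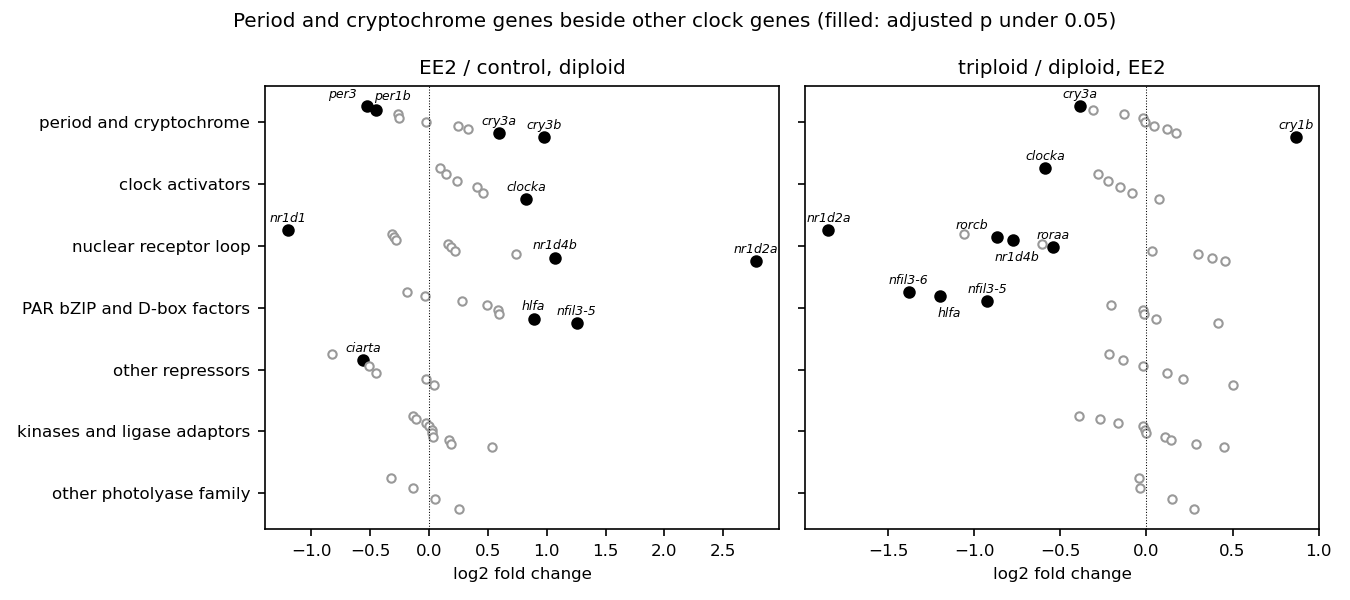
Log2 fold change (x axis) of the period and cryptochrome genes and of 6 groups of other clock genes (y axis), for EE2 in diploids and for ploidy under EE2, which share the diploid EE2 libraries. Filled, named points passed an adjusted p of 0.05 in edgeR's quasi-likelihood test, and points are spread vertically within a group only to separate them. The values run from -1.20 to 2.78 in the EE2 column, with nr1d2a farthest to the right.

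How the members varied together depended on whether group means were kept. Over the 15 libraries, Pearson's r of log2 CPM between pairs of members ran from -0.69 to 0.88 with a median of -0.20, and 14 of 36 pairs were positive. With each group's mean taken out it ran from -0.37 to 0.79 with a median of 0.30, and 31 of 36 pairs were positive. Diploid control replicate 1, which stood apart from its group, was the lowest diploid control for per1b, per2, per3, cry1a, cry1b, cry2 and cry3b. Its part in these correlations was not tested, nor was the share of positive pairs among all genes. The pair per1b and cry3b had r = -0.64 over all libraries and 0.64 with group means taken out. The pair per1b and per3 was high in both views, at 0.88 and 0.79, as was cry1a with cry3a, at 0.77 and 0.76. The copies cry1a and cry1b were negative in both, at -0.63 and -0.37. The points of these correlations share libraries, and the libraries share a scaling to depth.

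**Figure D5:**
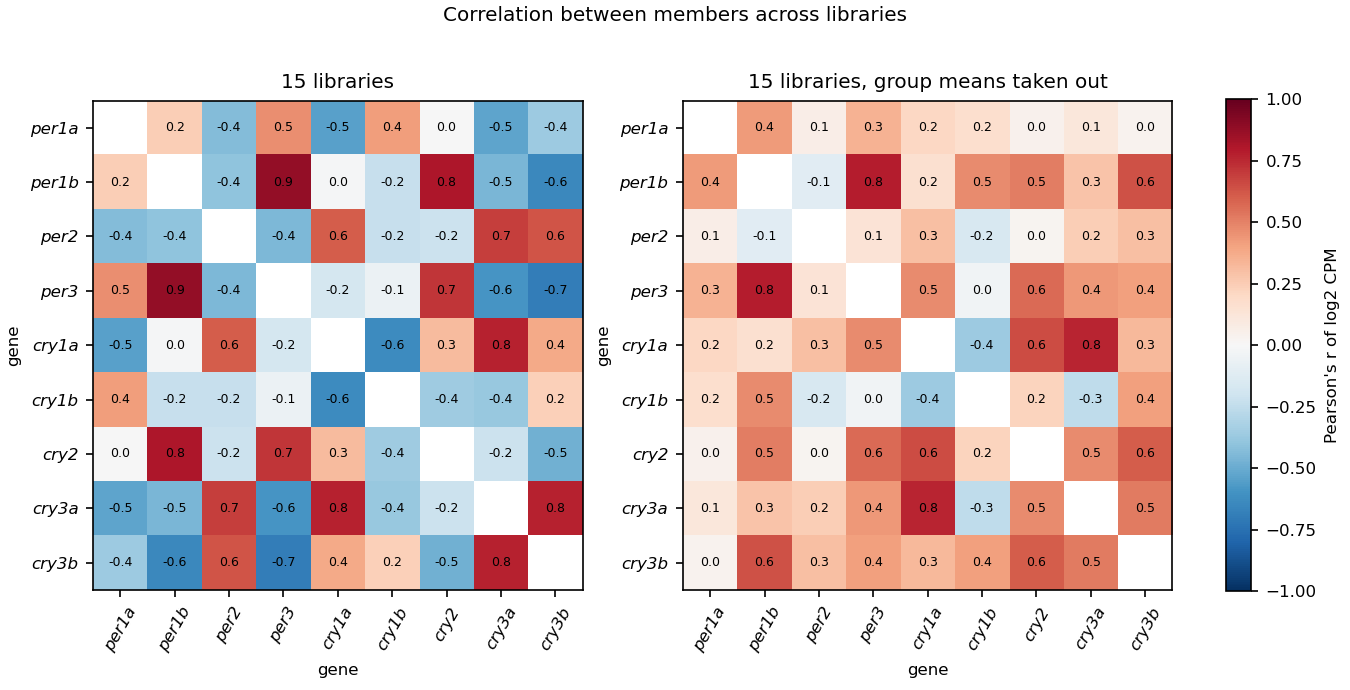
Pearson's r of log2 CPM for each pair of the 9 genes (both axes), over 15 libraries as they stand (left) and with the mean of each group taken out (right). Red is positive and blue negative; 14 of 36 pairs are positive on the left and 31 of 36 on the right.

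The closest gene in pattern over the 15 libraries was named for each member. It was sought among 15149 genes whose mean log2 CPM was 1 or more and whose symbol was not a clone name. For per3 it was ciarta, with r = 0.88, and for per1b it was per3, also with r = 0.88. For the cry3 copies it was notchl for cry3a, with r = 0.98, and ctsc, a lysosomal protease gene, for cry3b, with r = 0.92. For cry1b it was septin7b, a cytoskeletal gene, with r = 0.97, and for cry1a it was stat5a, with r = 0.93. For per2, per1a and cry2 it was arhgef19, reps1 and dntt, with r of 0.91, 0.86 and 0.85. With group means taken out, none of these was the closest. Here actr3 was first for cry3b at 0.95, fam234b for cry2 at 0.94, and the first genes for the other members had r of 0.88 to 0.90. In both views each r is the highest of 15149 values over 15 libraries, so a high r is found even among unrelated genes. How high was not tested, and the named genes are a description only.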

How the data were processed

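Total RNA of male gonads was depleted of ribosomal RNA and sequenced as strand-specific libraries, per the labels. The deposited table holds counts: raw read pairs per gene and library, counted on the reverse strand over exons by the authors with featureCounts 2.0.6 and the Ensembl 113 annotation of GRCz11, per the file headers. Alignments came from STAR, per the submitters' processing notes, whose version is not stated there. The other deposited value, in another unit, is the exon length in bases, per the file headers.

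Gene symbols came from the reference table (29201 of 32520 genes matched). Upper-case symbols were given zebrafish paralog letters from RefSeq genes on the same chromosome (GRCz12tu assembly, names only), which named per1a, per1b, cry1a and cry1b. edgeR 4.0.16 in R 4.3.3 fitted 1 mean per group over 15 libraries (filterByExpr, TMM, glmQLFit with robust estimation), and p-values were adjusted by Benjamini-Hochberg over 23007 genes. SE was computed from the fold change and the F statistic. CPM were computed from counts, library sizes and edgeR's TMM factors. The factors of the 15 libraries came from the fit, and that of the titled outlier from a separate run over all 16 libraries. The procedure was tested on simulated counts that held no outlying library and spiked differences larger than that of any member. That test therefore does not bear on differences of the members' size. Alternatives used DESeq2 1.42.0, limma 3.58.1 and left-out libraries. Named genes were all 9 members, called genes of the clock list, and the genes closest to each member in pattern. The members and lists were chosen with earlier results of these data known. Counting error is that of counts alone, since reads carry no molecular identifiers.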

Additional observations from a re-analysis of the deposited data

Results flagged for a closer look

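In 36 combinations of member and group of 4 libraries, 2 libraries stood far from the other 3 of their group, and chance alone gives about 1 in 20. The level of per2 was 57.12 CPM in triploid control replicate 4, against 45.3 to 46.4 CPM in the other triploid controls. The level of per1b was 125.4 CPM in triploid EE2 replicate 2, the library titled an outlier, against 92.8 to 96.0 CPM in the other triploid EE2 libraries.

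That library was left out of the fit, and 7 of the 9 members were higher in it than in every triploid control. The other 2, per1a and cry1b, were lower in it than in every triploid control. The titled outlier stood apart across the table: 34.6% of all genes tested were above every triploid control in it and 33.1% were below. The members' counts carry no test and are not read as particular to them. The 7 members were per1b at 125.4 CPM (highest triploid control 106.4), per2 at 57.33 (57.12), per3 at 147.1 (142.5), cry1a at 51.98 (33.09), cry2 at 68.71 (65.22), cry3a at 55.46 (50.84) and cry3b at 99.04 (73.76). The titled outlier was scaled by a factor from a separate run, and the gap of per2 was narrow.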

How the results depend on the processing

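The fitted directions of called members held under every alternative run. Of the 9 members, the number called for EE2 in diploids was 4; it was 2 with the titled outlier included, 2 with the replicate number as a block, 1 in a fit of only the groups compared, and 2 to 4 when 1 library was left out. The calls of cry3a and cry3b were kept in all 15 omissions. That of per1b was lost without diploid EE2 replicate 1, 2 or 3 or diploid control replicate 2, 3 or 4 (adjusted p up to 0.11), and that of per3 without diploid EE2 replicate 2 or 3, diploid control replicate 2, 3 or 4, or triploid replicates 3 or 4 of either condition (up to 0.13). For EE2 in triploids the number was 0, and 1 (cry3b) with DESeq2's Wald test, without both replicate 1 libraries of the diploid groups and with only the groups compared, and 0 to 1 with 1 library left out. For ploidy in controls it was 1, against 3 with DESeq2's Wald test, 3 without both replicate 1 libraries and 0 with the titled outlier, and 1 to 2 with 1 library left out. For ploidy under EE2 it was 2, and 1 with DESeq2 size factors, no filter, limma-voom, the titled outlier, both replicate 1 libraries left out, the replicate block or only the groups compared, and 1 to 2 with 1 library left out; cry3a was the call lost. Same-numbered libraries deviated from their group means with correlations of -0.164 to 0.205. The labels state no pairing by replicate number, and with groups of 3 or 4 libraries these correlations cannot show that there was none. With the block, the interaction count was 0, as it was otherwise. The causes of lost calls were not tested. Depth limits little here, with 219 or more read pairs for each member.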
